A study of Mus musculus with 8 samples.

Results

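The chitinase-like genes Chil3, Chil4, Chil1 and Chit1 were examined in mouse bone marrow-derived macrophages. The members were chosen by position in the deposited annotation (mouse build mm9): loci with a reference transcript inside chromosome 3, 105900000 to 106160000, around Chil3 and Chil4, or inside chromosome 1, 136000000 to 136095000, around Chit1 and Chil1. This gave 4 of 31020 loci, holding 16 of 89219 annotated transcripts. The groups were 4 libraries from C57BL/6 macrophages treated with interleukin-4 (IL-4) and 4 libraries from untreated C57BL/6 macrophages. Both groups were grown from bone marrow, and no allele or further agent is named for either. No dose or duration of IL-4 is stated in the labels. The design text speaks of biological replicates without naming animals, so the p-values measure the spread between these libraries, part of which may be technical.

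Chitinases of the glycoside hydrolase 18 family cut chitin, a polymer of fungal walls and arthropod cuticle. The chitinase-like proteins keep the fold of these enzymes but lack the residues needed for cleavage, and they act as secreted lectins. Chil3 (Ym1) and Chil4 (Ym2) encode closely related lectins of rodents, Chil1 encodes the lectin BRP-39, and Chit1 encodes chitotriosidase, an active chitinase made by human macrophages. IL-4 acts through its receptor and the transcription factor STAT6, and Chil3 is widely used as a mark of mouse macrophages activated by IL-4.

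Total counts over all loci ran from 23969227 to 27783417 in the 4 IL-4 libraries and from 23071022 to 26682884 in the 4 untreated libraries. Replicate 4 stood apart in both groups, with 5525 counts at loci of the Y chromosome in its IL-4 library and 5808 in its untreated library, against 0 to 7 in each of the other libraries. Replicate 4 therefore held material of a male donor that the other replicates lacked, and no such sign separates the others. Leaving out both replicate 4 libraries changed no call at the members. The files give locus and transcript IDs without gene names, and the reference tables held 0 of these IDs, so marker genes of macrophages or of other cells were not looked up and the cell type label was not checked here. The names Chil3, Chil4, Chit1 and Chil1 rest on the mm9 positions above. In bulk RNA, fewer expressing cells and less RNA per cell cannot be told apart.

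The promoters of Chil3 and Chil4 are shown because both genes belong to the member locus that rose with IL-4, and because STAT proteins recognise a short palindrome that can be searched for. The sequences are the 250 bases before the annotated start in RefSeq, build GRCm38.p6, on the minus strand, 5′ to 3′: chr3:106167565-106167814 for Chil3 and chr3:106219480-106219729 for Chil4. Capitals mark each match to TTCNNNGAA, a general STAT motif, and in Chil4 also a match to TATAAAA, a common core promoter motif.
Chil3: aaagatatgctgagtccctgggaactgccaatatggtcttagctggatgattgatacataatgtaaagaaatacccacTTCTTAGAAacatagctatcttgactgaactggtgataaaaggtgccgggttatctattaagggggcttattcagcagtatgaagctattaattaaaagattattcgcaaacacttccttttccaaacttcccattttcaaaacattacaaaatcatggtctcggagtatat
Chil4: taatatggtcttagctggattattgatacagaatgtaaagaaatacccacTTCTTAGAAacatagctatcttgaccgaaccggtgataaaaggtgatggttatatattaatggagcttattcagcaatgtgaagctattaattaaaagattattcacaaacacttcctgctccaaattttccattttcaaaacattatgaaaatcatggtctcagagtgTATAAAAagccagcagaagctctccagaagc

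Both promoters held the same 9 letters, TTCTTAGAA, at -172 to -164 in Chil3 and at -200 to -192 in Chil4, counted from the annotated start. Aligned with free ends, the promoters were 90.1% identical over 223 aligned columns, with 20 mismatches and 2 gaps. The other pairs among Chil3, Chil4, Chil1 and Chit1 were between 46.4% and 51.1% identical. The motif TTCNNNGAA, which reads the same on both strands, occurred in 2306 of 32851 RefSeq promoters of this length, or 7.02%. Among 10 genes of the glycoside hydrolase 18 family it occurred at Chil3, Chil4 and Chil6, and no match lay in the windows of Chil1 and Chit1. The longer spacing TTCNNNNGAA, the one that STAT6 prefers, had 0 matches among those 10 genes and occurred in 5.85% of all promoters. TATAAAA, searched on both strands, lay at -31 to -25 in Chil4 and occurred in 4.98% of all promoters, while in Chil3 the letters cross the annotated start, at -3 to 4. These matches describe letters and are not measured binding sites.

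Chil3 and Chil4 are counted together in the deposited table as locus XLOC_018018 (chr3:105945169-106152545, minus strand, 8 transcripts), and the locus rose by far more than the spread between libraries. Its raw counts were 73197, 74024, 78745 and 75570 in IL-4 replicates 1 to 4, against 44, 93, 51 and 43 in untreated replicates 1 to 4. In CPM, counts scaled to the total count of the library, this was 2833, 2664, 3285 and 2794 CPM in IL-4 macrophages, against 1.77, 3.49, 2.21 and 1.79 CPM in untreated macrophages. All 4 IL-4 libraries lay far above all 4 untreated libraries, and the untreated values rest on 43 to 93 reads each, with replicate 2 the highest.

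The locus averaged 2894 ± 271 CPM in IL-4 macrophages and 2.32 ± 0.805 CPM in untreated macrophages (SD, n = 4 each). By mean CPM it ranked 21st of 31020 loci in IL-4 macrophages and 10479th in untreated macrophages. The log2 fold change was 10.38 with a standard error of 0.20, or 1333-fold, with an adjusted p of 1.07e-10 (edgeR quasi-likelihood test, Benjamini-Hochberg over all tested loci). It was the 6th largest fitted rise among 13761 tested loci. The locus took up 0.289% ± 0.0271 of all counts in IL-4 macrophages and 0.000232% ± 8.05e-05 in untreated macrophages (SD, n = 4 each), a difference with a two-sided exact permutation p of 0.0286, the smallest that 4 against 4 libraries allow. Within the 4 replicate pairs the exact p was 0.125, the smallest that 4 pairs allow.

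**Figure D1:**
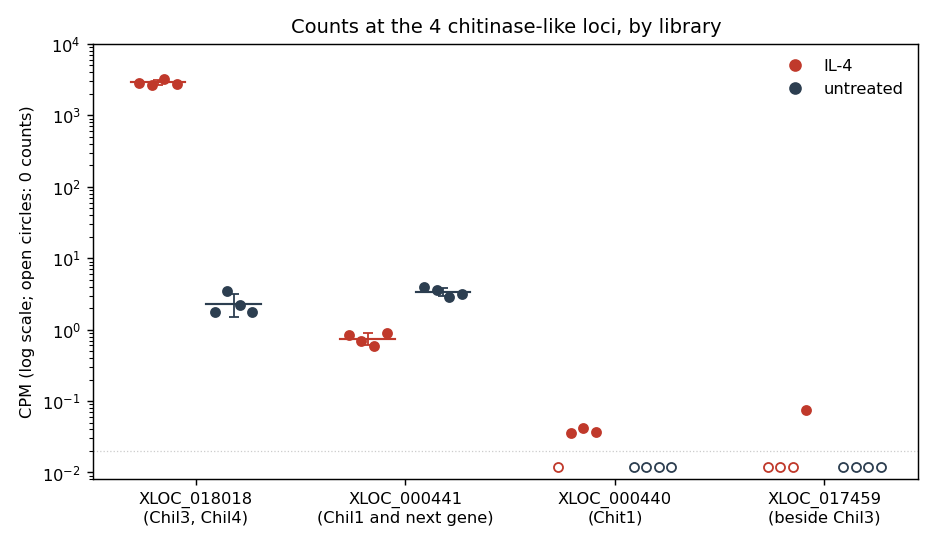
CPM of the 4 member loci in each library, with IL-4 left of untreated; each point is 1 library, on a log axis, bars are means ± SD and open circles are 0 counts. XLOC_018018 sits between 2664 and 3285 CPM in IL-4 libraries and between 1.77 and 3.49 CPM in untreated libraries, XLOC_000441 is lower in every IL-4 library, and the other loci have at most 2 counts in any library.

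Of the 4 member loci, 2 passed the filter on low counts, and of these XLOC_018018 rose and XLOC_000441, the locus with Chil1, fell. Over all tested loci, 25.6% rose and 26.2% fell, and at 6905 of the 13761 the IL-4 and untreated libraries did not overlap, so both a call and groups that do not overlap were common in this comparison. The median log2 fold change of all tested loci was -0.02.

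The isoform table lists Chil3 and Chil4 as separate transcripts, and most of the FPKM of the locus was assigned to Chil3 in every library. The Chil3 reference transcript (TCONS_00052603, chr3:105950472-105970482, 11 exons, 1539 nucleotides, nt) had 1409, 1351, 1659.8 and 1461 FPKM in IL-4 replicates 1 to 4, against 0.872, 1.61, 1.05 and 0.862 FPKM in untreated replicates 1 to 4. FPKM are fragments scaled to transcript length and to the mapped fragments of the library, so levels can be compared between transcripts. The transcript was detected in every untreated library, and the groups did not overlap. It averaged 1470.3 ± 134 FPKM in IL-4 macrophages, rank 51 of 89208 transcripts, and 1.10 ± 0.350 FPKM in untreated macrophages, rank 16531 (SD, n = 4 each). On the log2(FPKM + 0.1) scale the difference was 10.30 with a standard error of 0.18 (limma with a variance trend, adjusted p 6.59e-09).

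Chil4 was lower than Chil3 in every library. Its reference transcript (TCONS_00052604, chr3:106004409-106022397, 11 exons, 1510 nt) had 30.2, 29.2, 35.1 and 31.6 FPKM in IL-4 replicates 1 to 4. In untreated macrophages it was listed at 5.43e-07, 0, 0.00883 and 0 FPKM in replicates 1 to 4. It averaged 31.5 ± 2.57 FPKM in IL-4 macrophages (SD, n = 4), rank 2000 of 89208 transcripts, and was at or near 0 in each untreated library. The log2(FPKM + 0.1) difference was 8.27 with a standard error of 0.11 (limma, adjusted p 2.17e-09). Its size is set by the constant added, since it was 11.39 with 0.01 added and 5.02 with 1 added. It is no bound on the fold. The standard error and p-value also depend on that constant, since the untreated values all lie close to it once added. The adjusted p was 3.27e-07 with 0.01 added and 1.14e-09 with 1 added (limma), so these values are a description and no support.

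Within IL-4 macrophages the ratio of the genes varied less between libraries than the level of either gene. For every 100 FPKM of Chil3 there were 2.14, 2.16, 2.11 and 2.16 FPKM of Chil4 in IL-4 replicates 1 to 4. The untreated libraries gave 6.22e-05, 0, 0.840 and 0. At the share of reads that Chil4 had in IL-4 macrophages, an untreated library would hold between 0.741 and 1.60 reads of Chil4, so a change in the ratio was not detectable at this depth. The log2 ratio with 0.1 added to both was -5.54 ± 0.016 in IL-4 macrophages and -3.51 ± 0.393 in untreated macrophages (SD, n = 4 each), a difference of -2.03 with an exact permutation p of 0.0286. With 0.01 added the difference turned to 0.97, with 1 added it was -4.45, and within replicate pairs the exact p was 0.125, so no direction is read from it.

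**Figure D2:**
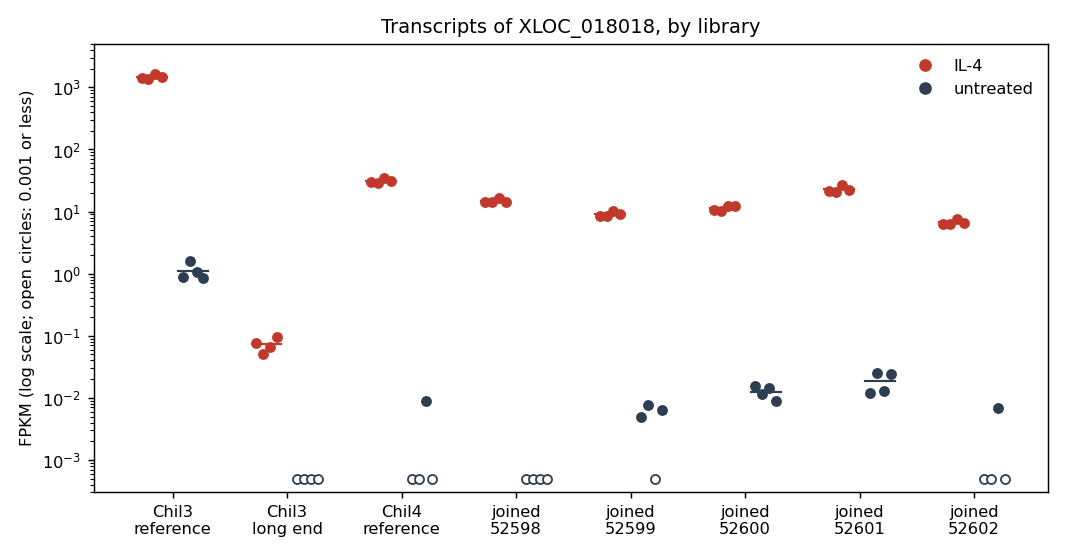
FPKM of the transcripts of XLOC_018018 in each library, IL-4 left of untreated, on a log axis; each point is 1 library, bars are means and open circles are values at or near 0. Chil3 lies between 1351 and 1659.8 FPKM, Chil4 between 29.2 and 35.1 FPKM and the 5 joined transcripts between 6.24 and 26.5 FPKM in IL-4 libraries.

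Of the 16 member transcripts, 7 had at least 1 FPKM in at least 4 libraries and were tested, all of them in XLOC_018018 and all of them higher with IL-4, where 19.8% of all 17500 tested isoforms rose. Each of the 7 passed this filter through its IL-4 libraries, so the count is a description and no support. With transcripts summed per gene and the joined forms left out, Chil3 and Chil4 were the only member genes tested, with log2 differences of 10.30 and 8.27 (limma adjusted p 3.03e-10 and 1.18e-11), where 26.4% of 10258 transcript clusters rose. Both passed the same filter through their IL-4 libraries too, so their count is no support either. The p-value of Chil4 depends on the constant added, as above. A further Chil3 transcript, TCONS_00052597, was matched to the same reference as TCONS_00052603 but has a longer first and last exon. It held 0.0517 to 0.0958 FPKM in IL-4 macrophages and at most 6.93e-08 FPKM in untreated macrophages.

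The locus also holds 5 assembled transcripts that join Chil3 sequence to exons further upstream. Chil3 and Chil4 lie 33926 nt apart on the same strand. All 5 joined forms end at 105945169 in a last exon of 5622 nt, which runs 5303 nt past the end of the Chil3 reference transcript.

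TCONS_00052598, TCONS_00052599 and TCONS_00052600 start at the first base of Chil4 and carry 5, 4 and 7 exons on Chil4 before passing to Chil3 exons. TCONS_00052601 starts 490 nt upstream of Chil4, with a first exon of 530 nt that covers Chil4 exon 1, and then takes 10 Chil3 exons. TCONS_00052602 starts 130148 nt upstream of Chil4 with a first exon of 20 nt and then takes 10 Chil3 exons. In TCONS_00052598 the passage falls inside an exon: 143 nt of Chil4 exon 5 are followed by 23 nt of Chil3 exon 5, which add up to the 166 nt of the exon in either gene.

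**Figure D3:**
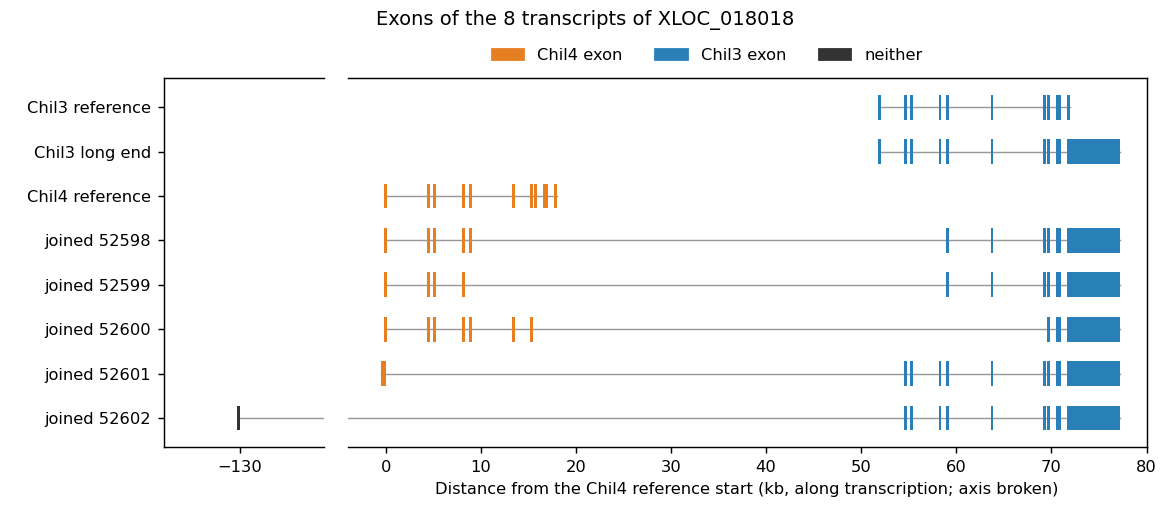
Exons of the 8 transcripts of XLOC_018018 drawn by distance from the Chil4 start, in kilobases, with transcription from left to right and a break in the axis; short exons are drawn at a minimum width so that they can be seen. The 5 joined transcripts begin at or upstream of Chil4 and all end in the long last exon past the Chil3 reference end.

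All 5 joined forms were higher with IL-4. The most abundant was TCONS_00052601, with 21.8, 20.8, 26.5 and 22.2 FPKM in IL-4 replicates 1 to 4, against 0.0118, 0.0251, 0.0129 and 0.0244 FPKM in untreated replicates 1 to 4. TCONS_00052598 had 14.3, 14.5, 16.4 and 14.1 FPKM in IL-4 replicates 1 to 4 and at most 1.19e-09 FPKM in untreated macrophages. For both forms all 4 IL-4 libraries lay far above all 4 untreated libraries. Their log2(FPKM + 0.1) differences were 7.59 for TCONS_00052601 and 7.22 for TCONS_00052598 (limma adjusted p 6.59e-09 and 1.13e-08). These differences and p-values depend on the constant added, since the untreated values lie below it.

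The other joined forms were lower. TCONS_00052600 averaged 11.3 ± 1.27 FPKM in IL-4 macrophages and 0.0125 ± 0.00297 FPKM in untreated macrophages, and TCONS_00052599 averaged 9.02 ± 0.761 FPKM in IL-4 macrophages and 0.00473 ± 0.00334 FPKM in untreated macrophages (SD, n = 4 each). TCONS_00052602, with the farthest start, averaged 6.67 ± 0.652 FPKM in IL-4 macrophages (SD, n = 4), and was listed at 0.00685 FPKM in untreated replicate 3 and at no more than 1.72e-08 FPKM in the other untreated libraries. Their log2 differences ran from 6.05 to 6.66 (limma adjusted p at most 1.50e-07). Like those of Chil4, these differences and p-values depend on the constant added.

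Summed, the 5 joined forms held 64.7 ± 5.91 FPKM in IL-4 macrophages and 0.0375 ± 0.00552 FPKM in untreated macrophages (SD, n = 4 each). They are long, so they weigh more in reads than in FPKM. In IL-4 macrophages Chil3 took 93.9% ± 0.0436 of the summed FPKM of the locus, Chil4 2.01% ± 0.0212 and the joined forms 4.13% ± 0.0333 (SD, n = 4). In fragments, FPKM multiplied by length, the Chil3 reference transcript took 81.9% ± 0.113, the joined forms 16.4% ± 0.112 and Chil4 1.72% ± 0.0180 in IL-4 macrophages (SD, n = 4). In untreated macrophages the joined forms took 14.0% ± 2.68 of the fragments and the Chil3 reference transcript 85.8% ± 2.59 (SD, n = 4), on the few reads given above.

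By start site, transcripts from the Chil4 start summed to 66.7 ± 5.36 FPKM in IL-4 macrophages and 0.0195 ± 0.00329 FPKM in untreated macrophages (SD, n = 4 each). The Chil4 reference transcript made up less of that sum than the joined forms did. The level assigned to Chil4 therefore depends on which transcripts are counted. Summed over the transcripts that hold an exon, whole-transcript FPKM can only fall along Chil4 and only rise along Chil3. That direction is set by the transcript models, since the joined forms begin at or upstream of Chil4 and end past Chil3. The sums are not read coverage of single exons. In IL-4 macrophages the transcripts that cover Chil4 exon 1 summed to 89.5 ± 7.84 FPKM, those over exons 2 to 4 to 66.7 ± 5.36, over exon 5 to 57.7 ± 4.60, over exons 6 and 7 to 42.9 ± 3.73, and over exons 8 to 11 to 31.5 ± 2.57 (SD, n = 4). Over the matching Chil3 exons the sums were 1470.4 ± 134 FPKM at exon 1, 1499.9 ± 137 at exons 2 to 4, 1524 ± 139 at exons 5 to 7 and 1535 ± 140.0 at exons 8 to 11 (SD, n = 4). For every 100 FPKM on Chil3 there were thus 6.09 on Chil4 at exon 1 and 2.05 at exons 8 to 11.

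**Figure D4:**
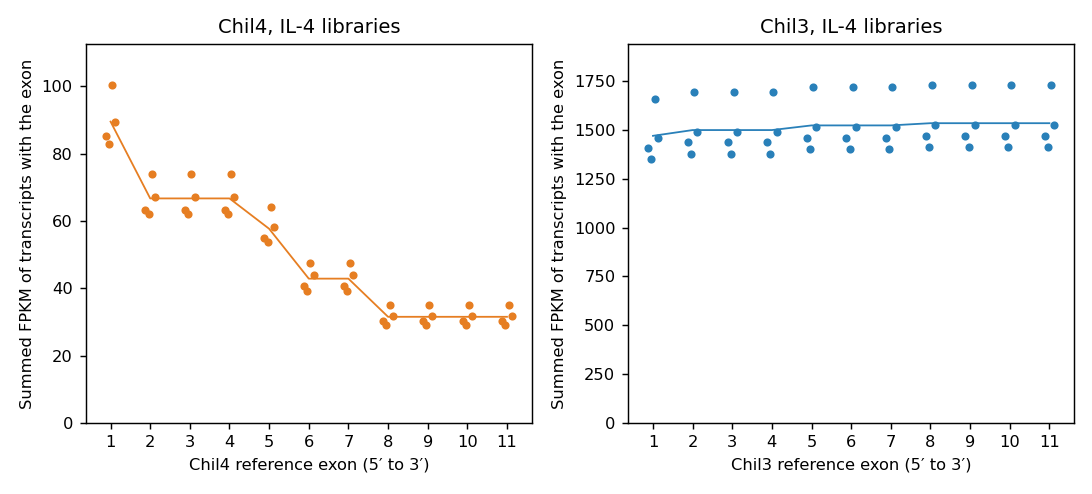
Summed FPKM of the transcripts covering each Chil3 exon and the Chil4 exon of the same number; each point is 1 IL-4 library, lines join the means, exons are numbered from the 5′ end, and the panels differ in scale. In IL-4 macrophages the Chil4 sum is 89.5 FPKM at exon 1 and 31.5 FPKM at exons 8 to 11, while the Chil3 sum stays between 1470.4 and 1535 FPKM. The sums use whole-transcript FPKM, so their direction is set by the transcript models and is no measured coverage.

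The exons of the genes match closely in length. Of the 11 exons, 9 have equal lengths in both genes (30, 202, 57, 166, 125, 124, 186, 120 and 142 nt for exons 2 to 10), the first exon has 68 nt in Chil3 and 40 nt in Chil4, and the last has 319 nt in Chil3 and 318 nt in Chil4. For genes this alike, the division of reads between Chil3, Chil4 and the joined forms is uncertain, and it was not tested here, since no mm9 sequence was at hand. The locus count needs no such division, but whether reads that align to both genes were counted is not stated. As a share of the library, the counts of the locus were 1.05 times the fragments recomputed from FPKM in IL-4 macrophages and 1.17 times in untreated macrophages.

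Upstream of Chil4 lies XLOC_018334 (chr3:106024842-106025815), a single exon of 974 nt without a reference transcript, the only locus between the Chil4 start and the farthest start of XLOC_018018. It begins 2445 nt upstream of Chil4 and is no member by the rule. It had 17, 13, 16 and 4 counts in IL-4 replicates 1 to 4 and 0 counts in each of the 4 untreated libraries. With 3 counts allowed over the untreated group and the 50 IL-4 counts taken as listed, this was 15.7-fold higher in IL-4 macrophages. The value was between 13.8 and 19.5 when each IL-4 library was left out. It leaves out the spread of the IL-4 counts, so it is no strict lower bound. The locus did not pass the filter on counts and was not tested.

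Chil1, whose lectin BRP-39 takes part in type 2 inflammation of the lung in mice, lies in XLOC_000441 (chr1:136078981-136097809, plus strand, 5 transcripts), and this locus fell with IL-4. Its counts were 22, 19, 14 and 24 in IL-4 replicates 1 to 4, against 97, 95, 67 and 76 in untreated replicates 1 to 4. In CPM it averaged 0.752 ± 0.143 in IL-4 macrophages and 3.39 ± 0.442 in untreated macrophages (SD, n = 4 each). All 4 IL-4 libraries lay below all 4 untreated libraries. The log2 fold change was -2.06 with a standard error of 0.19 (edgeR quasi-likelihood test, adjusted p 4.68e-06).

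This fall could not be assigned to Chil1. The locus joins Chil1 (TCONS_00001509, chr1:136078981-136086608) to the reference transcripts of the next gene (136090025 to 136097809), and RefSeq lists Mybph next to Chil1 in the mouse. Most of its fragments were assigned to TCONS_00001510, an assembled transcript of 8042 nt and 11 exons that begins at the Chil1 start, carries an exon of 4246 nt from the last Chil1 exon into the next gene, and ends at 136093048, inside the next gene. TCONS_00001511, the assembled form that runs to the end of the next gene, was listed at no more than 1.22e-05 FPKM in any library. TCONS_00001510 had 0.0536, 0.0483, 0.0424 and 0.0547 FPKM in IL-4 replicates 1 to 4, against 0.276, 0.245, 0.194 and 0.219 FPKM in untreated replicates 1 to 4. The Chil1 reference transcript was listed at 0.0250 and 0.0531 FPKM in IL-4 replicates 2 and 4 and at no more than 1.13e-09 FPKM in the other libraries of either group.

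TCONS_00001510 took 93.3% ± 8.26 of the fragments of the locus in IL-4 macrophages and almost all of them in untreated macrophages (SD, n = 4). By summed FPKM, which does not weigh length, the assembled forms took 79.2% ± 24.8 in IL-4 macrophages (SD, n = 4), with a lowest value of 50.7% in 1 library, and almost all in untreated macrophages. The reference transcripts of the next gene were at or near 0 FPKM in every library. None of the 5 transcripts reached 1 FPKM, and none was tested. Counts of the locus, as a share of the library, were 1.74 times the fragments recomputed from FPKM in IL-4 macrophages. In untreated macrophages they were 1.81 times those fragments. Of the exonic bases of XLOC_000441, 665 of 9292 nt (7.16%) are shared with XLOC_001134, and no source used here says how strand and shared reads were handled. The other 3 member loci share no exonic base with another locus.

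Chit1 and the unnamed locus beside Chil3 were at the limit of detection in both groups. Chit1, the locus XLOC_000440 (chr1:136007819-136048013, plus strand, 12 exons, 2 isoforms), had 0, 1, 1 and 1 counts in IL-4 replicates 1 to 4 and 0 counts in each untreated library. Its isoforms were listed at no more than 0.0167 FPKM in any library. XLOC_017459 (chr3:105916300-105935034, plus strand, 11 exons), the neighbour of Chil3 on the other strand, had 2 counts in IL-4 replicate 4 and 0 counts in each of the other 7 libraries, and at most 0.0349 FPKM.

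The files give XLOC_017459 no name, and RefSeq lists Chia1, the acidic mammalian chitinase, next to Chil3 in the mouse, but the IDs do not tie them together. A count of 0 over the 4 untreated libraries allows up to 3 counts, or 0.0305 CPM, a limit that covers counting error only. Neither locus passed the filter, so a difference between the groups was not detectable at this depth. Of the glycoside hydrolase 18 family, Chil5, Chil6, Ovgp1, Chid1 and Ctbs were not analysed here for their RNA.

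In IL-4 macrophages the order by FPKM began with Chil3 at 1470.3 ± 134, the joined Chil3 forms at 64.7 ± 5.91 in sum and Chil4 at 31.5 ± 2.57. Next came TCONS_00001510 at 0.0497 ± 0.00563, which joins Chil1 to the next gene and is no level of Chil1 alone. The Chil1 reference transcript followed at 0.0195 ± 0.0253 and Chit1 at 0.00805 ± 0.00932 in sum (SD, n = 4 for each value). The last 2 did not differ beyond their spread, and the range of the Chil1 reference transcript, up to 0.0531 FPKM, overlapped that of TCONS_00001510, from 0.0424 FPKM. In untreated macrophages the order was Chil3 at 1.10 ± 0.350, TCONS_00001510 at 0.233 ± 0.0352 and the joined Chil3 forms at 0.0375 ± 0.00552 in sum (SD, n = 4). Chil4, the Chil1 reference transcript and Chit1 were at or near 0 there.

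Most tested loci around XLOC_018018 did not rise. The same held over all tested loci, of which 25.6% rose and 26.2% fell. Whether the neighbours differ from those shares was not tested. Within 500 kb of the chromosome 3 window there were 22 other loci, of which 15 were tested, 5 rose and 1 fell; their median log2 fold change was 0.10. Around the chromosome 1 window there were 26 other loci, of which 13 were tested, 1 rose and 5 fell; their median was -0.25. On chromosome 3 the fitted changes ran from -1.16 to 9.96, and on chromosome 1 from -2.58 to 0.33.

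The neighbour with a change of the size of XLOC_018018 was XLOC_017453 (chr3:105255018-105477130), a protein-coding locus with 3429 counts in the 4 IL-4 libraries and 3 counts in the 4 untreated libraries. Its fitted log2 fold change of 9.96 depends on the few untreated counts; the ratio of the summed counts, scaled to library totals, was 1076, with an exact 95% counting interval from 368 to 5220.4. Without untreated replicate 2, which held 2 of the 3 counts, the ratio was 2354, with an interval from 422 to 92995. The next largest on chromosome 3 were XLOC_018014 (chr3:105726996-105735757), with 0.497 ± 0.157 CPM in IL-4 macrophages and 1.21 ± 0.250 CPM in untreated macrophages, and XLOC_017460 (chr3:106280485-106304940), with 16.2 ± 1.71 CPM in IL-4 macrophages and 8.32 ± 0.789 CPM in untreated macrophages (SD, n = 4 each; edgeR adjusted p 0.00371 and 5.85e-06).

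On chromosome 1 the largest fall among the neighbours was at XLOC_001137 (chr1:136260364-136265315), without a reference transcript. It had 0.0658 ± 0.0336 CPM in IL-4 macrophages and 0.457 ± 0.0374 CPM in untreated macrophages. These rest on 7 counts over the IL-4 libraries and 45 over the untreated libraries, so the size of the fall depends on few counts. XLOC_001135 (chr1:136193360-136229505) had 15.1 ± 2.67 CPM in IL-4 macrophages and 47.3 ± 3.62 CPM in untreated macrophages (SD, n = 4 each; edgeR adjusted p 0.000133 and 1.36e-06). XLOC_001565 (chr1:135994396-135995871) had 0.310 ± 0.107 CPM in IL-4 macrophages and 0.662 ± 0.307 CPM in untreated macrophages (SD, n = 4 each) and did not pass the test (edgeR adjusted p 0.0576).

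**Figure D5:**
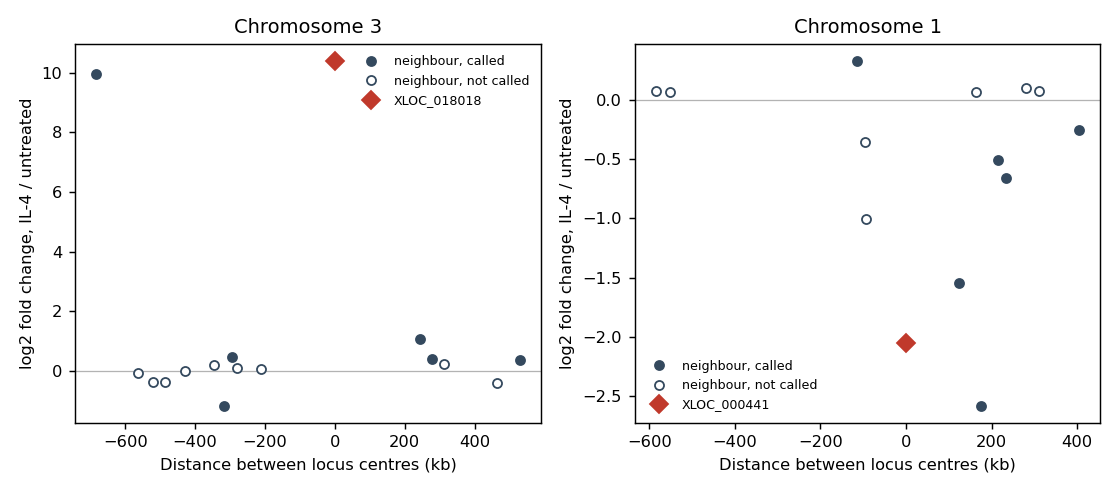
Log2 fold change of IL-4 over untreated for the tested loci around each member window, by the distance of its centre from that of XLOC_018018 or XLOC_000441 in kilobases; each point is 1 locus, filled where called. On chromosome 3 XLOC_018018 at 10.38 and XLOC_017453 at 9.96 stand apart from the other tested loci, and on chromosome 1 all values lie between -2.58 and 0.33.

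By Pearson correlation of log2(CPM + 1) over the 8 libraries, the tested loci most like XLOC_018018 were XLOC_007783 (chr14:44396128-44514361, r = 0.9994), XLOC_000098 (chr1:40380886-40424465, r = 0.9994), XLOC_021916 (chr5:32722462-32723268, r = 0.9993), XLOC_017453 (r = 0.9989) and XLOC_026229 (chr7:147232056-147238416, r = 0.9988). XLOC_007783 had 139.9 ± 15.5 CPM in IL-4 macrophages and 0.506 ± 0.101 CPM in untreated macrophages (SD, n = 4 each). The libraries fall into 2 groups, so these coefficients mostly reflect the gap between the groups. For XLOC_000441 the most alike loci were XLOC_011366 (chr17:35516562-35522372, r = 0.9981), XLOC_027675 (chr8:125098537-125100807, r = 0.9968), XLOC_020757 (chr5:118426779-118460200, r = 0.9968), XLOC_023399 (chr6:124791090-124814511, r = 0.9967) and XLOC_004272 (chr11:34622687-34647143, r = 0.9964). XLOC_011366 had 16.8 ± 1.53 CPM in IL-4 macrophages and 61.5 ± 7.50 CPM in untreated macrophages (SD, n = 4 each).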

How the data were processed

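Per the labels' protocols, macrophage RNA was DNase-treated, cleared of ribosomal RNA and made into 8 TruSeq RNA libraries. The submitters' processing notes name HTSeq, Cufflinks 2.1.1, TopHat2 2.0.9, CASAVA 1.8.2 and build mm9; their settings, strand handling and treatment of reads shared between near-identical genes are not stated there, and all of these bear on Chil3 and Chil4. The authors deposited raw read counts for 31020 merged loci and FPKM for 89208 transcripts, with a merged annotation whose exon positions were used for gene models; the number of value columns that matched no library was 0. The depth behind an FPKM value is unknown.

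Counts were tested with edgeR 4.0.16 (R 4.3.3; TMM factors, default expression filter, quasi-likelihood test, two-sided, Benjamini-Hochberg adjustment over 13761 loci, threshold 0.05). For FPKM, limma 3.58.1 with a variance trend was run on log2(FPKM + 0.1), for isoforms with at least 1 FPKM in at least 4 libraries. CPM are counts scaled to the library's total. Promoters from RefSeq were aligned with Biopython 1.88. The main fits were tested on simulated data. No recovery or false-call rate is given here, so no support is drawn from those simulations. Alternatives were other size factors, DESeq2 1.42.0, filters, constants added, a fold threshold, leaving out libraries and the replicate block. Floors and intervals cover counting error only. Library pairs within a group differed beyond sampling noise (chi-square per degree of freedom from 4.79 to 41.4). The replicate numbers come from the titles. Deviations from the group mean correlated at 0.149 to 0.390 between same-numbered libraries and at -0.268 to 0.261 between differently numbered ones. Every same-numbered pair was above 0.1. So were IL-4 replicate 4 with untreated replicate 1 (0.123), IL-4 3 with untreated 2 (0.133) and IL-4 2 with untreated 3 (0.261). The ranges overlap, so these correlations do not settle the pairing. The numbers were taken to pair the libraries for the replicate block only. Untreated replicate 3 correlated at 0.261 with IL-4 replicate 2 and at 0.228 with IL-4 replicate 3. The main fits used no pairing, and the replicate block was an alternative. Every member locus, tested transcript, the 3 neighbours of largest change per window and the 5 most alike loci are named. The members, lists and motifs were chosen with earlier results of these data known.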

Additional observations from a re-analysis of the deposited data

Results flagged for a closer look

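For the members, 20 groups of 4 library values were examined by Dixon's 95% criterion. It flags about 1 in 20 by chance if values are independent and normally distributed. Of the groups, 5 had a value standing far from the others. In IL-4 macrophages this was the joined transcript TCONS_00052598 in replicate 3, at 16.4 FPKM. In untreated macrophages all 4 values were in replicate 3: TCONS_00052598 at 1.19e-09 FPKM, TCONS_00052602 at 0.00685 FPKM, Chil4 (TCONS_00052604) at 0.00883 FPKM, and the ratio of Chil4 to Chil3 at 0.840 per 100. Untreated replicate 3 held 51 counts at the whole locus, and the ratio uses the same Chil4 value. Untreated values at or near 0 do not meet those conditions, so the number flagged is not read as an excess. No cause was tested.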

How the results depend on the processing

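The log2 fold change of XLOC_018018 stayed between 10.27 and 10.65 and that of XLOC_000441 between -2.19 and -1.94 under all 16 alternatives, with 1 member locus called higher and 1 called lower in each. The log2(FPKM + constant) difference ran from 9.46 to 10.48 for Chil3 and from 5.02 to 11.39 for Chil4, with the calls kept. The log2 ratio of Chil4 to Chil3 reversed to 0.97 with 0.01 added; the untreated Chil4 values at or near 0 make it depend on that constant. Under the replicate block, the difference between the groups stayed at 0.289 percentage points in share of counts and -2.03 in this log2 ratio. Both had an exact within-pair permutation p of 0.125, the smallest 4 pairs allow. The block changed no other call. Leaving out 1 library gave a difference in share from 0.276 to 0.297 percentage points. The 43 to 93 untreated reads at XLOC_018018 limit statements on its isoforms in untreated macrophages.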
